A study of Mus musculus with 25 samples.

Results

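The genes described are 10 muscle microRNA genes of the mouse: Mir206, Mir133b, Mir133c, Mir1a-1, Mir1a-2, Mir133a-1, Mir133a-2, Mir208b, Mir499 and Mir486. They were chosen by name from the 1228 microRNA genes of RefSeq, with the peak lists known beforehand, so that counts of these genes with a peak describe the lists and test nothing. Their hairpins fall into 7 loci on 5 chromosomes, of which 3 hold 2 hairpins each. Chromatin was taken from primary myoblasts, the cultured precursors of muscle fibers, which were isolated by preplating from limb muscle of C57BL/6 mice (C57BL/6 N in the study's methods) at an age of 10 days and grown below confluency. No genotype or treatment other than the strain is given, and the number of mice behind the culture is not stated. ChIP-seq was done with an antibody against Spin1 and with an antibody that the sample title gives as H3K4me3 and the antibody field as H3K4me. Each antibody gave 1 library. The 22 RNA-seq samples of the series and the input library were not analysed here, so nothing in the values below says how much of any microRNA the cells made.

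MicroRNAs are short RNAs that are cut from a hairpin within a longer transcript, and base pairing of bases 2 to 8, the seed, with a messenger RNA lowers the output of that messenger. The myomiRs are microRNAs that muscle makes in large amounts: miR-1, miR-133 and miR-206 are made as myoblasts differentiate, whereas miR-208b and miR-499 lie in introns of myosin heavy chain genes and belong with slow fibers and the heart. Mir486, a microRNA of muscle and red blood cells, lies within the ankyrin gene Ank1. Spin1 is a histone code reader that binds H3K4me3, the trimethylated lysine of histone H3 found at the start of active genes.

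Mature sequences were compared for the 5 of the 10 members that had an entry in the RefSeq table (GRCm38.p6), with 9 mature sequences. The members without an entry were Mir133c, Mir1a-2, Mir133a-1, Mir133a-2 and Mir486, and Mir1a-1 had an entry for its 5p arm only. Capitals mark the seed, and some of the 9 sequences are given from 5′ to 3′.
mmu-miR-206-3p: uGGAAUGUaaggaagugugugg
mmu-miR-133b-3p: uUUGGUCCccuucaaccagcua
mmu-miR-208b-3p: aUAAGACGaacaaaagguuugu
mmu-miR-499-5p: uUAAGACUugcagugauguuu
mmu-miR-206-5p: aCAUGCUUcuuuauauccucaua
mmu-miR-1a-1-5p: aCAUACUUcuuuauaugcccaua
No pair among the 9 sequences shared all of bases 2 to 8. The 3p arm of Mir1a-1 and the members without an entry were not compared, so this does not say whether their seeds are shared. The sequences of miR-208b-3p and miR-499-5p, which come from introns of myosin genes on different chromosomes, shared bases 2 to 7. The 5p arms of miR-206 and miR-1a-1 were identical at 20 of 23 positions.

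A peak is a stretch of the genome where MACS found more reads than in the input, and its score is that comparison's p-value on a negative log10 scale, multiplied by 10. Deeper libraries and wider peaks give higher scores, and many peaks stop at 3100, so scores order peaks only within 1 list and give no order at 3100. The Spin1 list held 17106 peaks, of which 30.9% scored 3100 or more and 8.68% (1485) overlapped no H3K4me3 peak. The H3K4me3 list held 30763 peaks, of which 45.2% scored 3100 or more. Read counts are not in the lists, so the depth is unknown and a gene without a peak may have a signal too weak to be called. Promoters (TSS±1 kb) of all 9 myoblast markers examined, such as Pax7, Itga7, Chrna1, Myod1 and Myog, carried both peaks. Spin1 was at 5 of 7 fibroblast markers, at none of 4 endothelial and at none of 4 blood cell markers, and H3K4me3 was at 7, 3 and 1 of these. Among 24952 genes with a curated transcript, 52.4% had Spin1 and 63.8% had H3K4me3 at a promoter. The share that fibroblasts had in the peaks described below was not tested.

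Spin1 lay within 1 kb of 4 of the 10 hairpins, those of Mir206, Mir133c, Mir1a-1 and Mir1a-2, and 15.9% of all 1228 microRNA genes had such a peak (95% Wilson interval 13.9 to 18%, counting error only). H3K4me3 lay within 1 kb of Mir1a-1, Mir1a-2 and Mir486, which is 3 of 10, against 24.3% (22.0 to 26.8%) of all. Both peaks were found at Mir1a-1 and Mir1a-2 (2 of 10, and 15.6% of all). H3K4me3 without Spin1 was found at Mir486 (1 of 10, and 8.79% of all). The other 5 members, Mir133b, Mir133a-1, Mir133a-2, Mir208b and Mir499, had neither peak, as did 75.3% of all. Spin1 without H3K4me3 was found at Mir206 and Mir133c, whereas the share over all microRNA genes was 0.326%, or 4 genes. The latter share was 2.12% when a gene counted only if the center of a peak lay in the window. The other two of these were Mir12193 and Mir7014, with Spin1 scores of 120.48 and 102.22. Since 3 pairs of members are neighbors, these counts do not stand for 10 separate regions.

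**Figure D1:**
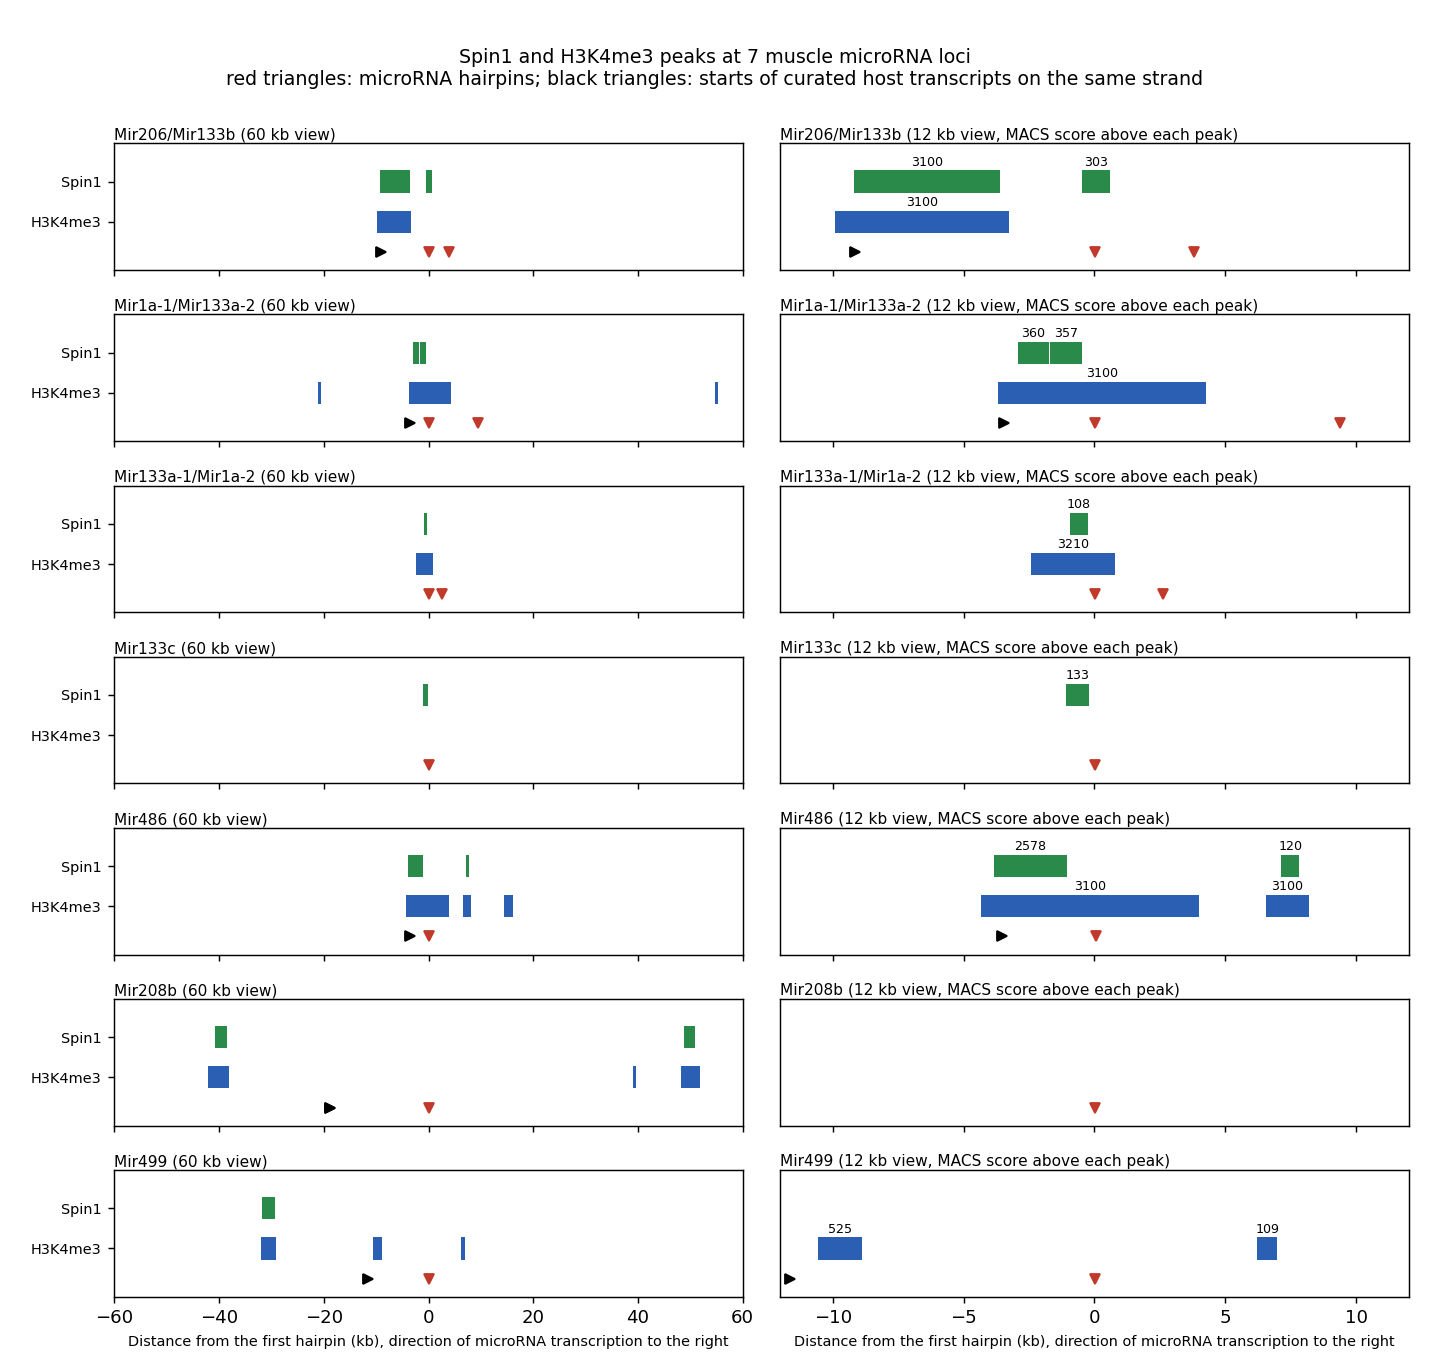
Spin1 peaks (green) and H3K4me3 peaks (blue) at the 7 loci, by distance from the first hairpin in kb in the direction of microRNA transcription; the left panels show 60 kb and the right panels 12 kb on each side, with the MACS score over each peak. Red triangles are hairpins and black triangles are starts of curated host transcripts of the same strand; wide H3K4me3 peaks reach over Mir1a-1, Mir1a-2 and Mir486, and Spin1 peaks lie ahead of them, whereas the Spin1 peak at Mir206 with a score of 303 and that ahead of Mir133c with a score of 133 have no H3K4me3 bar beneath them.

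A peak overlapped the hairpin itself in fewer cases. Spin1 covered a single hairpin, that of Mir206 (1 of 10, and 11.8% of all microRNA genes), and H3K4me3 covered the hairpins of Mir1a-1, Mir1a-2 and Mir486 (3 of 10, and 18.5% of all). For each of the 10 members, the nearest Spin1 peak lay either over the hairpin or upstream of it. Upstream distances were 189 bp for Mir133c, 256 bp for Mir1a-2, 465 bp for Mir1a-1, 1044 bp for Mir486, 2832 bp for Mir133a-1 and 3164 bp for Mir133b. They were 9796 bp for Mir133a-2, 29416 bp for Mir499 and 38420 bp for Mir208b. Mir1a-1 with 465 bp was thus the farthest member inside the limit of 1 kb, and Mir486 with 1044 bp the first outside. The median distance to the nearest Spin1 peak was 1.94 kb over the members (quartiles 0.308 and 8.14 kb) and 19.4 kb over all microRNA genes (3.76 and 96.0 kb). For H3K4me3 the medians were 4.16 kb (0.446 and 6.79 kb) and 10.2 kb (1.1 and 42.6 kb). For H3K4me3, the first member outside the limit was Mir133a-1, whose nearest peak ended 1782 bp upstream of the hairpin.

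Within 50 kb on each side, 10 of 10 members had a Spin1 peak (66.9% of all microRNA genes) and 9 of 10 had an H3K4me3 peak (76.3% of all). The exception for H3K4me3 was Mir133c, with the nearest peak 126810 bp downstream of the hairpin. The 7 loci together held 11 Spin1 peaks, of which 9 overlapped H3K4me3, and 14 H3K4me3 peaks, of which 6 overlapped no Spin1 peak, as did 53.5% of the whole H3K4me3 list. Neighboring members share these peaks.

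**Figure D2:**
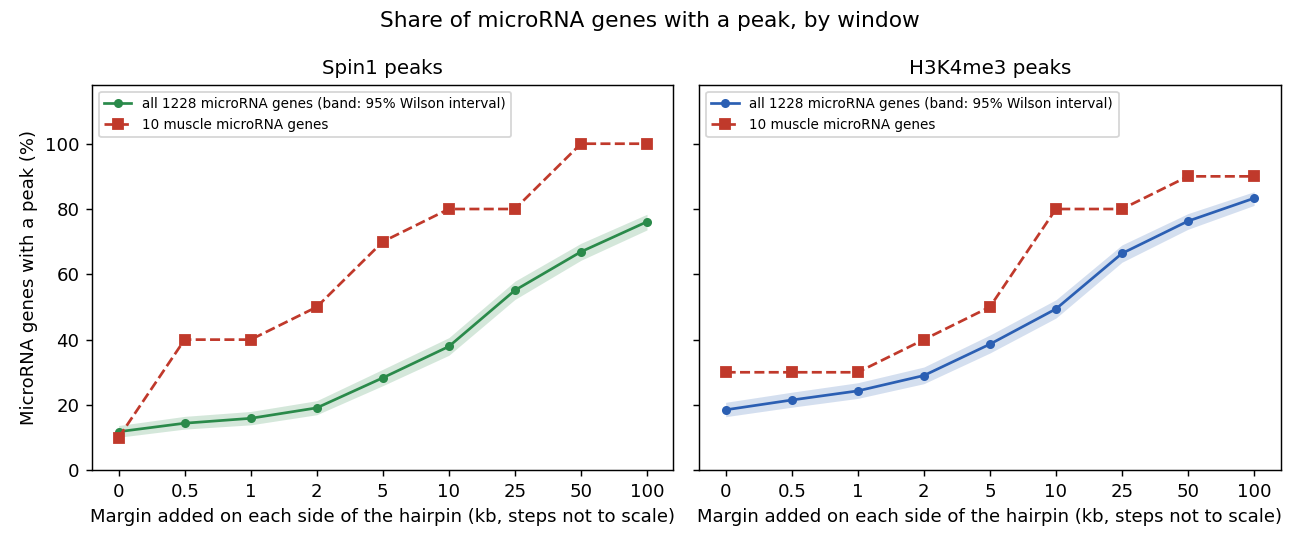
Percent of microRNA genes with a Spin1 peak (left) or an H3K4me3 peak (right) on the vertical axis against the margin added on each side of the hairpin in kb; solid lines are all 1228 microRNA genes with the 95% Wilson interval as a band, and dashed lines are the 10 members. With no margin the Spin1 shares were 10.0% for members and 11.8% for all, and at 5 kb they were 70.0% and 28.3%, whereas the H3K4me3 shares at 5 kb were 50% and 38.6%.

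Mir206 and Mir133b lie on the plus strand of chr1 (GRCm38, chr1:20679010-20679082 and chr1:20682769-20682887), both within the long noncoding RNA gene Lincmd1, known as a decoy for microRNAs in differentiating muscle. Mir206 is in intron 2 and Mir133b in exon 3 of its 3 exons. The start of Lincmd1, 9128 bp ahead of Mir206, carried the widest Spin1 peak of the 7 loci, chr1:20669812-20675415. It was 5604 bp wide, scored 3100 and was wider than 99.0% of the Spin1 list. The H3K4me3 peak over the same start was 6673 bp wide (chr1:20669085-20675757), and Spin1 covered 84.0% of it.

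The second Spin1 peak of the locus, chr1:20678547-20679605, covered Mir206 with 1059 bp and a score of 302.63. No H3K4me3 peak overlapped it, and the nearest one was 2790 bp away. Among the 1485 Spin1 peaks without H3K4me3, 93 had a higher score, and it was wider than 91.1% of them. In the whole Spin1 list, only 30.8% of peaks had a lower score and 29.6% were narrower. The curated RefSeq transcripts have no start under this peak. A GENCODE vM21 transcript of the gene that GENCODE calls Gm28653 starts at position 20679023, under the peak and 13 bp into the Mir206 hairpin. No peak of either list lay within 1 kb of Mir133b, 3164 bp downstream of the Mir206 peak.

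Short matches to muscle regulator motifs were looked up under the Spin1 peaks to show which letters these regions hold. The E-box CANNTG is the motif of the bHLH factors, to which Myod1 and Myog belong, and its form CAGCTG is preferred by Myod1. MEF2 sites and CArG boxes, the sites of Mef2 proteins and Srf, were searched by their consensus. Each of these consensus motifs reads the same in form on both strands. Capitals mark the match, and the sequences are from RefSeq GRCm38.p6 and on the plus strand. They lie under Spin1 peaks within 1 kb of a start of Lincmd1, Mir1a-1hg and Ank1, the same-strand host genes with such a peak. The peak at Mir1a-1hg did not cover its start.
Lincmd1 MEF2, chr1:20669819-20669828: agtacactCTATAAATAGgaacatta
Lincmd1 E-box, chr1:20669897-20669902: cagtgggaCAGCTGaagaggta
Mir1a-1hg E-box, chr2:180386288-180386293: gtccctctCAGCTGgctgcttc
Mir1a-1hg E-box, chr2:180386301-180386306: ggctgcttCAGCTGcccaccag
Ank1 E-box, chr8:23138950-23138955: agctctagCAGCTGgctcgaga
The MEF2 match lay 63 bp upstream and the E-box shown 15 bp downstream of the Lincmd1 start. This E-box was the nearest to the start of 6 CAGCTG matches in that Spin1 peak. It and the MEF2 match lay near the edge of the peak, 2716 and 2794 bp from its center. The E-boxes at Mir1a-1hg lay 684 and 697 bp downstream of its start, but nearer to that of B230312C02Rik, a gene on the opposite strand, 408 and 421 bp upstream of it. The E-box shown for Ank1 lay 80 bp upstream of the start nearest to Mir486. It was the nearest to that start of 5 CAGCTG matches in the Spin1 peak there. The counts of 6 and 5 are over whole peaks, for which no share over all Spin1 peaks is given. Of 32851 promoters of 300 bp in the RefSeq table, 16.3% held CAGCTG, 72.3% held CANNTG, 0.557% held a MEF2 match and 1.63% held a CArG box. The table had 7 promoters of the host genes Lincmd1, Med27, Mir1a-1hg, Myh7 and Myh7b, and none of Ank1, Mib1 and Gm15816. Of these 7 promoters, 4 held CAGCTG (Lincmd1, Med27 and Mir1a-1hg), 7 held CANNTG, 1 held a MEF2 match (Lincmd1) and 0 held a CArG box. In the central 501 bp of the Spin1 peaks, CAGCTG was found in 1 of the 11 peaks at the 7 loci, that of Efs, and in 25.9% of all Spin1 peaks. CANNTG was found in 11 of 11 and in 83.3% of all. A MEF2 match was found in 0 of 11 and in 0.637% of all, and a CArG box in 0 of 11 and in 1.87% of all. The whole Spin1 peak at Mir206 held 7 CANNTG and that at Mir133c held 4, and these letters were CAGCTG in none of them. A match of letters is a description and does not show that a factor was bound.

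Mir1a-1 and Mir133a-2 lie on the plus strand of chr2 (chr2:180389048-180389124 and chr2:180398379-180398482), in intron 3 of the noncoding host gene Mir1a-1hg. The H3K4me3 peak chr2:180385365-180393316 started 5′ of the host gene, covered its start and Mir1a-1, and ended 5063 bp ahead of Mir133a-2. It was 7952 bp wide, wider than 98.9% of the H3K4me3 list, and scored 3100. Spin1 was called in 2 neighboring peaks between the host start and Mir1a-1, chr2:180386114-180387325 and chr2:180387365-180388583, with scores of 359.56 and 356.56. They were 1212 and 1219 bp wide, and together they covered 30.6% of the H3K4me3 peak. Neither covered the host start at 180385604, although the first came within 1 kb of it. The start nearest to both Spin1 peaks was that of B230312C02Rik at 180385885 on the opposite strand, which also lay under the H3K4me3 peak. The last 465 bp before Mir1a-1, the hairpin and the rest of the wide mark downstream of it held no Spin1 peak. A weak H3K4me3 peak with a score of 50.82 lay 20550 bp upstream of Mir1a-1, and another with a score of 58.69 lay 45364 bp downstream of Mir133a-2, both without Spin1.

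Mir133a-1 and Mir1a-2 form the sister pair on the minus strand of chr18 (chr18:10782909-10782976 and chr18:10785481-10785552), within intron 12 of Mib1, a ubiquitin ligase gene of the Notch pathway on the opposite strand. Spin1 was called once, at chr18:10785808-10786475, in a peak 668 bp wide with a score of 107.66, which was higher than 7.45% of the Spin1 list. H3K4me3 was called once, at chr18:10784758-10787994, with a width of 3237 bp and a score of 3210.03. Spin1 covered 20.6% of this H3K4me3 peak. Curated RefSeq transcripts have no start near these peaks, and the center of the Spin1 peak lies 60516 bp from the start of Mib1. In GENCODE vM21 the noncoding gene Mir133a-1hg starts at 10785883, under both peaks and 331 bp ahead of Mir1a-2. The Mib1 start itself carried both peaks with scores of 3100. Mir1b, a hairpin on the strand opposite Mir1a-2, lay 241 bp from the same Spin1 peak and under the same H3K4me3 peak.

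Both pairs of Mir1a with Mir133a thus had the same layout, with Spin1 upstream of the Mir1a hairpin and a wider H3K4me3 peak over it, and with no peak within 1 kb of the Mir133a hairpin. H3K4me3 covered 100% of the Mir1a-1 gene±1 kb and 86.6% of the Mir1a-2 gene±1 kb, and Spin1 covered 25.8% and 32.2%. Mir206, by comparison, had 51.1% of its gene±1 kb under Spin1 and 0.0% under H3K4me3.

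Mir133c lies on the minus strand of chr2 (chr2:29475215-29475294), in an intron of Med27, a subunit gene of the Mediator complex on the opposite strand. Its only peak within 50 kb was the Spin1 peak chr2:29475483-29476395, 189 bp upstream, 913 bp wide and with a score of 132.81. Among the Spin1 peaks without H3K4me3, 64.8% had a lower score, and in the whole Spin1 list 16.7% did. The nearest H3K4me3 peak to this Spin1 peak was 127 kb away. Of the 2 curated starts of Med27, the first (29346810) carried both peaks with scores of 3100 and the second (29378514) carried neither.

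Mir486 lies on the plus strand of chr8 (chr8:23142555-23142682), in the last or second-last intron of Ank1, which has 4 curated starts. The start nearest to Mir486, 3525 bp upstream at 23139030, carried a Spin1 peak (chr8:23138700-23141511, 2812 bp, score 2577.72) and an H3K4me3 peak (chr8:23138220-23146541, 8322 bp, score 3100). This H3K4me3 peak was wider than 99.1% of the list, covered Mir486 as well as Mir3107, the hairpin on the opposite strand, and was covered by Spin1 over 33.8%. Spin1 ended 1044 bp ahead of the Mir486 hairpin. The starts at 22974836 and 23058259 carried H3K4me3 without Spin1, and the start at 23035099 carried neither. Gm15816, a noncoding gene antisense to Ank1, had a Spin1 peak with a score of 119.5 and an H3K4me3 peak with a score of 3100 at its start. An H3K4me3 peak at Nkx6-3, 14376 bp downstream of Mir486, had no Spin1.

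Mir208b (chr14:54975700-54975776, minus strand) lies in intron 31 of Myh7, the slow myosin heavy chain, and Mir499 (chr2:155622880-155622958, plus strand) lies in intron 19 of Myh7b, a related myosin heavy chain. Neither peak was found at any curated start of Myh7 or Myh7b. The peaks within 50 kb of Mir208b lay at other genes, at Ngdn (Spin1 score 3100, 38420 bp upstream), at Efs (Spin1 score 1087.06, 48697 bp downstream) and, with H3K4me3 alone and a score of 64.53, at Cmtm5. Mir208a, its relative in Myh6, lay 22057 bp from the nearest Spin1 peak and 12259 bp from the nearest H3K4me3 peak. For Mir499 the only Spin1 peak was at Gss, a gene of glutathione synthesis, with a score of 2841.3 and a distance of 29416 bp. Myh7b itself held 2 H3K4me3 peaks without Spin1, chr2:155612336-155613985 with a score of 525.26, which starts just beyond 1 kb from the curated start, and chr2:155629088-155629871 with a score of 108.97.

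Taking the host genes as a group, 7 of 10 members lay within a curated transcript of the same strand (63.2% of all microRNA genes). For 5 of these members the host promoter carried Spin1, and for the same 5 it carried H3K4me3. Of the 776 microRNA genes with such a host, 77.4% had Spin1 and 87.6% had H3K4me3 at the host promoter. Counting both strands, the 10 members lay in 8 genes. Both peaks were found at a promoter of 6 of these (Lincmd1, Mir1a-1hg, Ank1, Gm15816, Med27 and Mib1), and neither at 2, the myosin genes Myh7 and Myh7b. Over all genes with a curated transcript, 52.4% had Spin1 and 63.8% had H3K4me3 at a promoter. Spin1 without H3K4me3 at a promoter was found for 0 of the 8 and for 0.0641% (16) of the 24952 genes with a curated transcript.

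The wide H3K4me3 peaks differed in how much of them lay under Spin1. Across the list, H3K4me3 peaks 6 to 9 kb wide had a median of 64.8% under Spin1 (quartiles 54.4 and 74.6%, 877 peaks), and those 3 to 6 kb wide a median of 65.4% (54.5 and 74.7%, 6854 peaks). The Lincmd1 peak with 84.0% was above 91.7% of the peaks of its width. The peaks over Mir1a-1 (30.6%), Mir486 (33.8%) and Mir1a-2 (20.6%) were at the other end, with 2.96%, 4.1% and 5.06% of the peaks of their width lower. The Efs and Ngdn peaks, which are near Mir208b but lie at other genes, had 55.5% and 60.2%, between the quartiles of their width class. These percentages rest on where MACS set the borders of each peak.

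**Figure D3:**
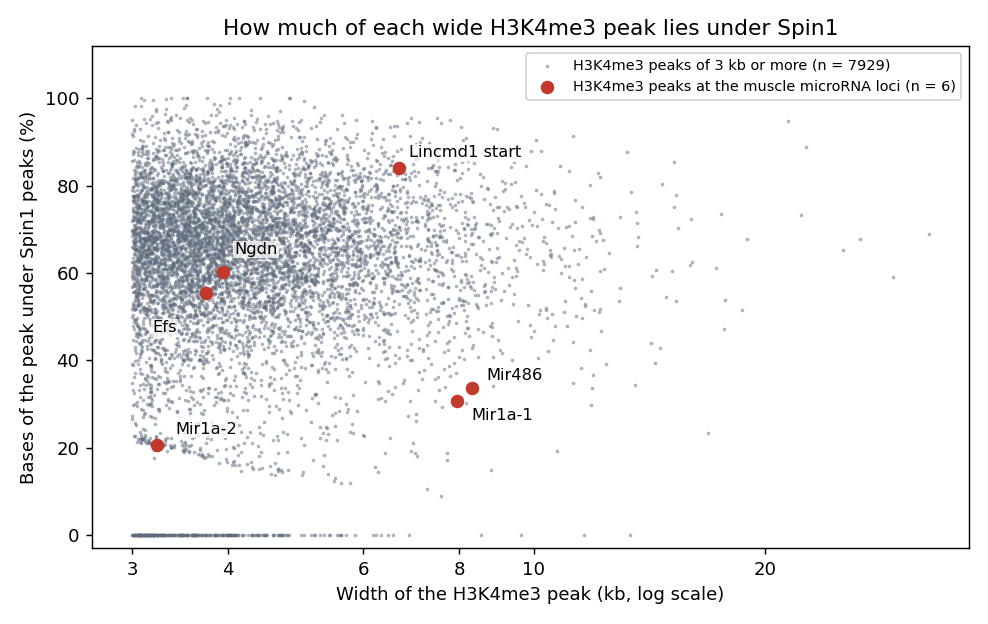
Percent of the bases of each H3K4me3 peak that lie under Spin1 peaks (vertical axis) against the width of the H3K4me3 peak in kb on a log scale, for all H3K4me3 peaks of 3 kb or more (gray) and for the 6 of them at the 7 loci (red). The peak at the Lincmd1 start is high at 84.0%, and those over Mir1a-1, Mir486 and Mir1a-2 are low at 30.6%, 33.8% and 20.6%.

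Sequence composition was not part of how the members were chosen. The CpG observed over expected ratio compares the CpG pairs in a stretch with the number that its C and G content would give, and most promoters of widely used genes lie in CpG islands with a high ratio. In the hairpin±1 kb, the ratio had a median of 0.196 over the 10 members, with a range from 0.0898 at Mir133a-1 to 0.292 at Mir499. Over all microRNA genes the median was 0.235. It was 0.499 for the 191 microRNA genes with both peaks, 0.283 for the 108 with H3K4me3 alone and 0.21 for the 925 with neither. The members with both peaks, Mir1a-1 (0.229) and Mir1a-2 (0.263), were below the lower quartile of 0.305 of the genes with both. Mir486, with 0.201, was below the lower quartile of 0.228 of the genes with H3K4me3 alone. Mir206 (0.11) and Mir133c (0.15) had the lowest ratios of the 4 genes with Spin1 alone.

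The Spin1 peaks themselves gave a like picture. The median ratio was 0.554 over all Spin1 peaks and 0.556 over the 314 peaks of 5 kb or more. The peak at the Lincmd1 start had a ratio of 0.131, and 0 of the 314 wide peaks and 640 of the 17106 peaks in all were lower. The ratio was 0.105 for the peak at Mir206, 0.2 for that at Mir133c, 0.34 and 0.136 for those ahead of Mir1a-1, 0.343 for that ahead of Mir1a-2 and 0.305 for that at Ank1. The Spin1 peaks at Gss (0.47), Efs (0.555) and Ngdn (0.667), which lie at genes that contain no member, were higher, as was that at Gm15816 (0.799).

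**Figure D4:**
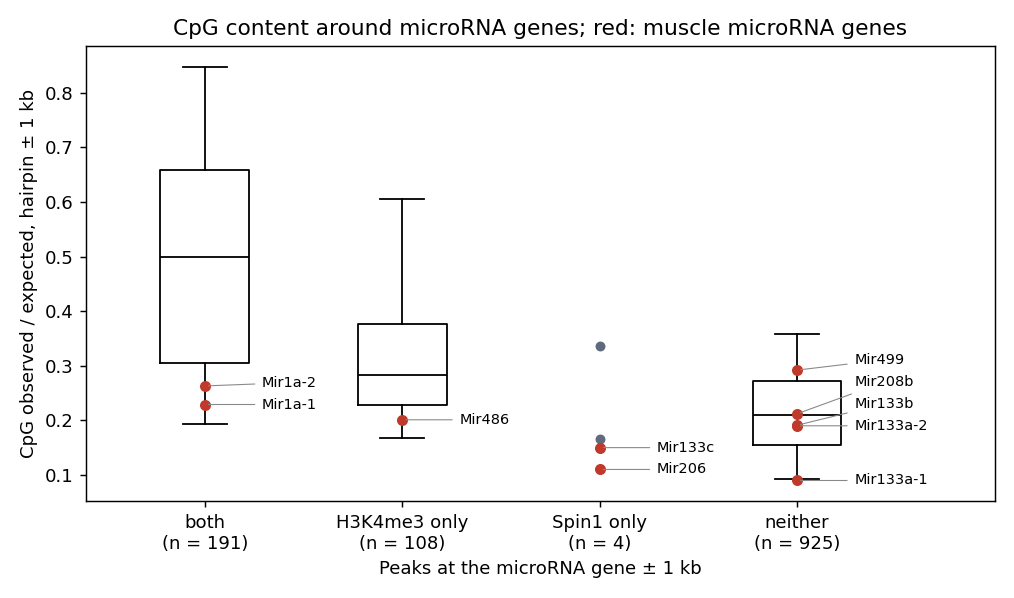
CpG observed over expected ratio of the hairpin±1 kb (vertical axis, no unit) for microRNA genes grouped by the peaks found there; boxes give the median and quartiles, whiskers the 5th and 95th percentiles, gray points the single genes of the group of 4, and red points the members. Mir1a-1 and Mir1a-2 lie below the box of the genes with both peaks, whose median was 0.499, and Mir206 and Mir133c are the lowest of the genes with Spin1 alone.

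Genes around these microRNAs were examined from lists drawn up from general knowledge. Earlier results of these data were known by then, so the counts describe the lists and test nothing. All 13 genes of microRNA processing, all 8 transcription factor genes that regulate the members and all 19 listed targets carried both peaks at a promoter, where 52.4% of all genes had Spin1 and 63.8% had H3K4me3. Among the processing genes, the widest Spin1 peaks with a score of 3100 were at Ddx5 (4565 bp) and Ddx17 (4538 bp), helicases of the Drosha complex, at Tarbp2 (4501 bp), a partner of Dicer, at Ran (4480 bp), which drives export from the nucleus, and at Ago2 (3764 bp), which cuts the paired messenger. Among the regulators they were at Mef2d (5064 bp), Srf (4961 bp), Myod1 (4891 bp), Myog (3621 bp) and Mef2a (3312 bp), all transcription factors of muscle genes. Among the targets they were at Purb (7201 bp), a repressor of slow muscle genes, at Pax7 (5404 bp), which keeps myoblasts as precursors, at Srf, which is on both lists, and at Sp3 (4610 bp).

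Of 36 other microRNA genes known to be made in myoblasts, 13 had Spin1 and 21 had H3K4me3 within 1 kb, and 0 had Spin1 alone, against 15.9%, 24.3% and 0.326% of all 1228 microRNA genes. Their highest Spin1 scores, all 3100, were at Mir125b-1 (8593 bp wide), Mir378a (6384 bp), Mir199a-2 (5114 bp), Mir21a (5069 bp) and the Mir17 cluster, whose 6 listed hairpins from Mir17 to Mir92-1 share 1 peak of 4353 bp. Other neighbors on this list share H3K4me3 peaks, so the counts of 13 and 21 do not stand for separate regions. Of 29 microRNA genes known from other tissues, 2 had Spin1, Mir150 (score 3100) and Mir9-1 (score 120.12), and 8 had H3K4me3. The lowest Spin1 score among the 36 was 169.97, at Mir26a-1. The Spin1 peaks within 1 kb of the muscle microRNA genes had scores from 107.66 at Mir1a-2 to 356.56 at Mir1a-1, and that at Mir206 had 302.63.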

How the data were processed

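Of 25 samples in the series, 2 ChIP-seq libraries were used. The authors aligned the read pairs with Bowtie2 (mm10), ran MACS 1.4.2 with the input as control and kept peaks with a false discovery rate of at most 1%. The deposited peak lists used here give the position of each peak and its MACS score. Positions are given from 1.

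From these lists, overlaps of at least 1 bp were computed with the hairpin±1 kb, with 50 kb on each side and with the TSS±1 kb of curated RefSeq transcripts (annotation release 108.20200622). There was 1 library per antibody, so no test between groups was possible, and shares over all genes carry 95% Wilson intervals for counting error only. The overlap code was tested on simulated data. Python 3.11.15, NumPy 2.4.6, pandas 2.3.3 and matplotlib 3.10.9 were used.

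The members, lists and motifs were chosen with earlier results of these data known. The rule for named items was all 10 members, every gene whose curated transcripts contain a member, every peak within 50 kb of a member, microRNA genes within 50 kb of a member, and up to 5 genes per list with the highest Spin1 score, ties by width, with every gene with Spin1 alone. Mir12193, Mir7014, Mir26a-1 and B230312C02Rik were named after their values were seen. The values of 1 listed target are not reported here. The sequence of peaks was read from GRCm38.p6. Alternatives were other windows, score limits, peak centers and transcript sets.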

Additional observations from a re-analysis of the deposited data

How the results depend on the processing

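With 1 library per antibody, depth, antibody, culture and PCR cannot be told apart from occupancy, and no value here has a replicate check. No paired analysis was possible because the replicate numbers in the labels belong to RNA-seq samples, which were not analysed here. By the paper's methods, both antibodies were used on the same myoblast chromatin, a small part for H3K4me3 and the rest for Spin1. The ChIP libraries thus shared the culture and form only 1 pair, which gives no spread between pairs. The effect of the unequal amounts of chromatin on the peak lists was not tested.

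Of 69 recomputed member, host and CpG values, 50 stayed within 1.5 times the reported count or within 1 SD. With the 50% of peaks with the highest score, 0 members had Spin1 within 1 kb, 0 had both peaks and 0 had Spin1 alone, since the peaks at Mir206, Mir133c, Mir1a-1 and Mir1a-2 all score below the median of the list. The loci then held 4 Spin1 peaks, 0 of them without H3K4me3, and 9 H3K4me3 peaks, and 5 members had Spin1 within 50 kb. With the same peaks, 11.2% of all microRNA genes had Spin1 within 1 kb and 53.3% had it within 50 kb. The member shares were thus not above those of all microRNA genes. Over the hairpin with no margin, 1 member had Spin1 (11.8% of all), 1 had Spin1 alone (0.163% of all) and 0 had both peaks. With a margin of 5 kb, 7 members had Spin1 (28.3% of all), 5 had H3K4me3 (38.6% of all) and 5 had both. The 2 with Spin1 alone (0.244% of all) were Mir133b and Mir133c, since Mir206 then had H3K4me3 in its window. With the peak center as criterion, 1 member had both, and 2.12% of all microRNA genes had Spin1 alone. Loci of 25 kb on each side held 9 H3K4me3 peaks, and those of 100 kb held 31 H3K4me3 and 21 Spin1 peaks. With promoters of TSS±0.5 kb, 5 of 8 host genes had Spin1 and 6 had H3K4me3, and with TSS±2 kb the counts were 6 and 7. With hosts on the strand of the microRNA only, 3 of 5 host genes had Spin1 and 3 of 5 had H3K4me3 at the promoter. GENCODE vM21 transcripts, chosen after the data were seen, gave 6 and 6 of 8 host genes, the same counts as RefSeq from different genes, with Mir133a-1hg in place of Mir1a-1hg. Of 43 values over all microRNA genes or of single H3K4me3 peaks, 22 moved. Among them, with the 50% of peaks with the highest score, an alternative chosen after the data were seen, Spin1 covered 0% of the H3K4me3 peaks over Mir1a-1 and Mir1a-2 and at Efs, and the values at Lincmd1, Mir486 and Ngdn did not change. The CpG ratio of the members had a median of 0.244 with a margin of 0.5 kb and 0.173 with 2 kb, against 0.24 and 0.233 over all microRNA genes, so the members were below all microRNA genes at 1 and 2 kb and not at 0.5 kb.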
